A study of Mus musculus with 18 samples.

Results

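The CYP2 cytochromes are a large family of membrane-bound enzymes with which the liver oxidises drugs, steroids and fatty acids. The genes described here are the protein-coding genes of the GENCODE M21 annotation whose symbol is Cyp2 followed by a subfamily letter and a number, which are 48 of the 55536 gene identifiers counted and 48 of 21951 protein-coding ones. The rule used names alone and no measured value. It holds 15 genes of subfamily CYP2C, 8 of CYP2D, 8 of CYP2J, 5 of CYP2B, 4 of CYP2A and 1 each of CYP2E, CYP2F, CYP2G, CYP2R, CYP2S, CYP2T, CYP2U and CYP2W. Another 21 loci with a CYP2 pseudogene name are not among the 48.

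Messenger RNA was counted in whole livers of 18 female C57BL/6 mice, 3 in each of 6 groups. TCDD is a dioxin that activates the aryl hydrocarbon receptor (AHR), and it was given by gavage at 100 µg/kg every 4 days up to day 92, with peanut oil as the vehicle. The WT groups are AhRfl/fl mice, in which the receptor gene is flanked by recombination sites but intact, the dHep groups are AhRΔHep mice with the deletion in hepatocytes, and the dHSC groups are AhRΔHSC mice with the deletion in hepatic stellate cells. Each genotype had 1 vehicle and 1 TCDD group, and the WT mice are floxed, not unmodified, animals. The Cre lines that made the deletions and the ages of the mice are not given in the sources used here.

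A P450 enzyme holds a heme that binds oxygen, and the CYP2 enzymes of the endoplasmic reticulum take their electrons from cytochrome P450 reductase, the product of Por, and in part from cytochrome b5. Transcription of the liver members is known to follow several routes: the nuclear receptors CAR and PXR raise genes such as Cyp2b10 and Cyp2c29 after drug exposure, and the pulse pattern of growth hormone, read through its receptor and the factor STAT5, sets members such as Cyp2c40 and Cyp2d9 apart between females and males. The classical genes raised through AHR belong to the CYP1 family.

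Total counts ran from 12706490 to 27240877 per library. Ahr was counted at 23.2 to 94.9 CPM (counts scaled to a common library size) over the 18 libraries, with no difference called between groups, and whole-gene counts do not show whether the deleted stretch is missing. The 6 listed AHR targets, among them Cyp1a1 and Cyp1a2, rose in WT and in dHSC. In dHep 0 of 6 were called, yet their summed level was 379 to 531 CPM with vehicle and 731 to 934 CPM with TCDD, without overlap, and Cyp1a1 was at 25.9 to 86.9 and 283 to 334 CPM (log2 2.26 ± 0.69, adjusted p = 0.473). Their response was lower in dHep than in WT for 6 of 6 (edgeR quasi-likelihood test, adjusted p = 0.00582 for Cyp1a1). Of the hepatocyte markers that check the liver label, Alb was at 37247 to 121799 CPM. In 5 libraries, dHep vehicle mice 9 and 15, dHep TCDD mouse 16, dHSC vehicle mouse 17 and dHSC TCDD mouse 18, counts outside protein-coding genes made up 2.20 to 4.25% of the total, against 1.13 to 1.76% in the other 13. These 5 stand apart on the first principal component, which holds 38.3% of the variance, and dHSC TCDD mouse 18 has 28.4% of its counts on mitochondrial genes. WT TCDD mouse 8 lies nearest to them, at 36.8 on that component where the 5 lie at 62.1 to 126 and the other 12 below 0, and its 1.76% is the highest of the 13. For the genes described mouse by mouse, the TCDD differences in dHep and dHSC are also given without the 5 libraries.

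The family took 2.33 ± 0.248% of all counts in WT vehicle livers (SD, n = 3) and 2.20 ± 0.273% in WT TCDD livers. It took 1.77 ± 0.303% in dHep vehicle, 2.14 ± 0.687% in dHep TCDD, 2.18 ± 0.225% in dHSC vehicle and 1.78 ± 0.791% in dHSC TCDD, where mouse 18 had 0.866%. The only dHep vehicle mouse outside the libraries that stand apart had 2.11%. The group ranges overlap within each genotype, and no test was run on these sums. Subfamily CYP2C held 36.1% of the family's counts in WT vehicle livers and the single gene of CYP2E held 31.5%. CYP2A held 14.7%, CYP2D 7.86%, CYP2B 4.38%, CYP2J 3.51% and CYP2F 1.83%.

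To compare genes with each other, levels were divided by exon length. Cyp2e1, which oxidises ethanol and other small molecules, led the WT vehicle livers at 3690.0 ± 654 CPM per kb of exon (SD, n = 3), and its lowest mouse lay above the highest mouse of the next gene. It was followed by Cyp2a5, a coumarin hydroxylase, at 854 ± 684, Cyp2c37 at 768 ± 122, Cyp2c69 at 719.6 ± 484 and Cyp2d26 at 624 ± 127 CPM per kb. From Cyp2a5 down to Cyp2c67, each gene overlapped its neighbour in this order over the 3 mice, so the order of neighbours within that stretch is not resolved. Genes further apart in it can be separate by this measure. The lowest Cyp2c37 mouse, at 692.5 CPM per kb, lay above the highest Cyp2c50 mouse, at 535.8. The exons of Cyp2c50 cover 2918 bases and its transcript compared below 1812, while both are 1824 bases for Cyp2c37. In CPM these mice overlap, at 1263 to 1658 for Cyp2c37 and 952 to 1563 for Cyp2c50. The order after Cyp2e1 thus depends on the length used, and for Cyp2c29 the 2 lengths are 3061 and 1783 bases. The gap between Cyp2c67, at 108 ± 4.70, and Cyp2c38, at 66.7 ± 5.37 CPM per kb, is the other place where neighbours did not overlap. With TCDD in WT livers Cyp2c69 went from rank 4 to rank 25 and Cyp2d9 from rank 26 to rank 18, while in dHep TCDD livers they held ranks 5 and 26.

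**Figure D1:**
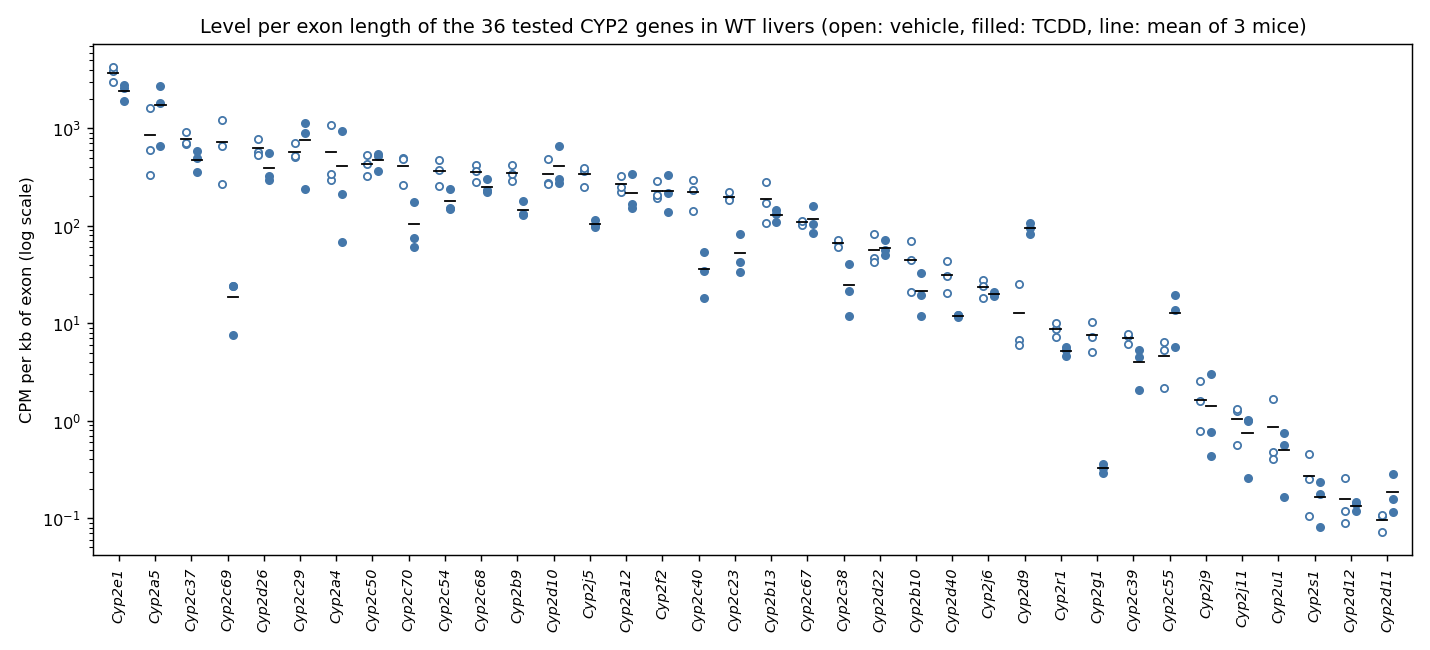
Level of the 36 tested CYP2 genes in WT livers, as CPM per kb of exon on a log axis, with genes along the horizontal axis in the order of their mean in vehicle. Open points are the 3 vehicle mice, filled points the 3 TCDD mice and short lines their means; Cyp2c69 and Cyp2g1 drop furthest below their vehicle points, and Cyp2d9 rises above its own.

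Of the 48 genes, 36 passed the filter on low counts and were tested. In WT livers 5 of the 36 were called for TCDD at an adjusted p under 0.05, which is 13.9%, against 5.38% of the 14835 genes tested. Cyp2c69, Cyp2g1, Cyp2c40 and Cyp2c23 fell, and Cyp2d9 rose. Falls were called in 1.95% and rises in 3.43% of all genes. The median log2 difference of the 36 was -0.57 and that of all genes -0.015, and 27 of the 36 values lay below 0. All 3 TCDD mice lay below all 3 vehicle mice for 14 of the 36 and above them for 2, where the shares of all genes are 11.4% and 13.4%, or 24.8% in both directions. At an unadjusted p under 0.05, 13 of the 36 passed, against 16.7% of all genes.

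The count of called members is not the same under other fits: 8 of 35 were called when only the WT libraries were fitted, against 5.47% of all genes in that fit. DESeq2 called 10 of 38, against 8.05%, and 11 of 35 were called without the 5 libraries that stand apart, against 10.2%. Of all WT mice, TCDD mouse 8 when left out moved the value most for 14 of the 36. The members added in all 3 of these settings were Cyp2j5, Cyp2d40 and Cyp2b9, all lower with TCDD. Several marker lists of other cell types moved with the treatment, but not all. Endothelial markers summed to 20.96 to 86.39 CPM in WT vehicle and 50.17 to 90.72 CPM in WT TCDD livers, with overlap. Kupffer and macrophage markers overlapped between these groups as well, and T cell markers were higher in every WT TCDD mouse. The summed level of 4 neutrophil markers was 1.18 to 3.33 CPM in WT vehicle and 55.1 to 77.7 CPM in WT TCDD livers (4 of 4 rose). The 5 matched hepatocyte markers summed to 84118 to 146994 CPM in vehicle and 46148 to 86418 CPM with TCDD, with 0 of 5 called. The 5 cholangiocyte markers summed to 48.4 to 64.7 and 178 to 250.1 CPM (2 of 5 rose), most of it Spp1 at 40.2 to 50.3 and 156 to 224 CPM. The 3 B cell markers, of which Ms4a1 is at 0 in every library, summed to 2.64 to 4.30 and 18.6 to 30.7 CPM (2 of 2 tested rose). Stellate cell markers summed to 226 to 454 and 389 to 697 CPM (2 of 5 tested rose). Pancreas markers summed to 13.7 to 67.0 CPM in vehicle and 7.01 to 8.60 CPM with TCDD. Nearly all of this was Cela1, while Prss2 and Cpa1 were at most 0.0574 and 0.151 CPM in any library. Skeletal muscle markers summed to 781 CPM in WT vehicle mouse 1 and at most 2.72 CPM in the others. Their part in the CYP2 results was not tested. In bulk liver, fewer cells of a type and less RNA per cell cannot be told apart.

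**Figure D2:**
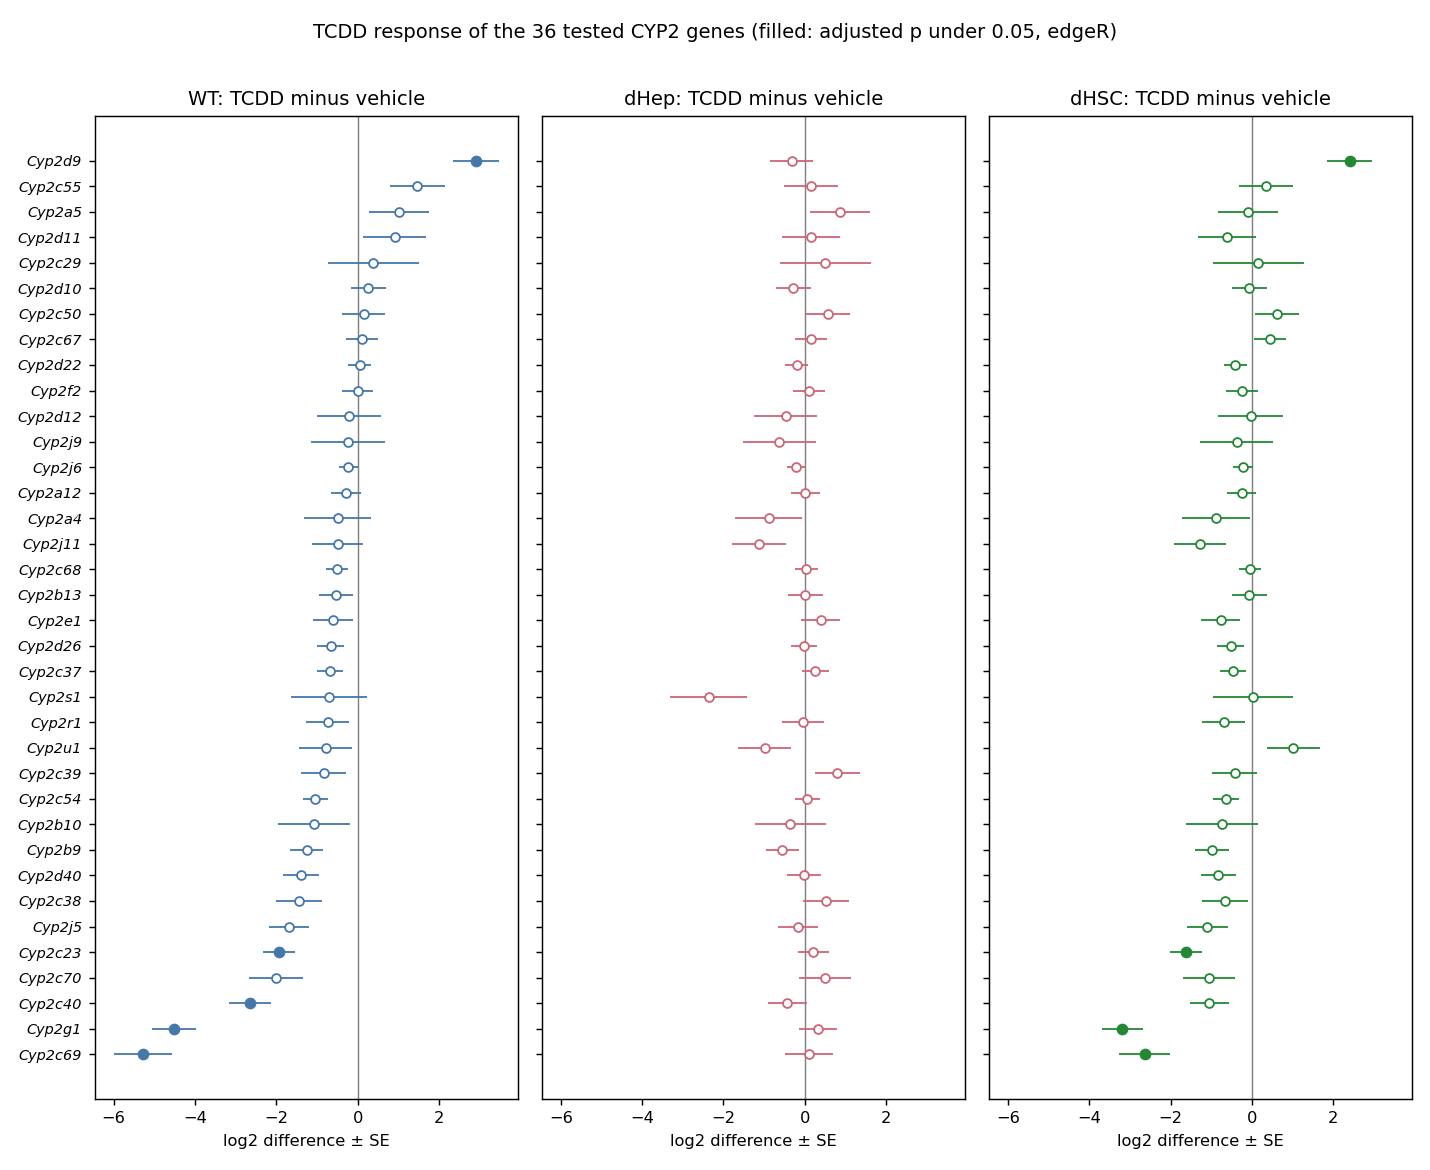
TCDD minus vehicle on the log2 scale for the 36 tested CYP2 genes, with 1 panel for each genotype and genes in the order of their WT value. Points are fitted differences, bars their standard errors, and filled points mark an adjusted p under 0.05 in edgeR's quasi-likelihood test; the 5 filled points in WT and 4 in dHSC have no counterpart in dHep.

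The widest fall was that of Cyp2c69 (ENSMUSG00000092008, chromosome 19, 39842814 to 39886799), a gene known for its higher level in female than in male mouse liver. Gene positions are on GRCm38. It was counted at 461, 1121 and 2105 CPM in the WT vehicle mice 1, 7 and 13. It was at 40.9, 41.0 and 12.9 CPM in the WT TCDD mice 2, 8 and 14. The vehicle mice themselves spread widely, yet the lowest of them lay far above the highest TCDD mouse. The log2 difference was -5.28 ± 0.71 (SE; adjusted p = 0.000314, edgeR). In dHep livers it was at 877, 509 and 795 CPM with vehicle and 956, 832 and 547 CPM with TCDD. Those groups overlap, and the log2 difference was 0.098 ± 0.59 with a 95% interval of -1.15 to 1.35, and 0.031 without the 5 libraries. In dHSC livers it was at 900.1, 1807 and 985 CPM with vehicle and 318, 212 and 63.8 CPM with TCDD. All 3 TCDD mice were lower there as well, with mouse 18 lowest, at a log2 difference of -2.64 ± 0.63 (adjusted p = 0.0342). That dHSC call was kept in 1 of the 6 fits that leave out 1 dHSC library, and without the 5 libraries the value was -2.35 (adjusted p = 0.176).

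Cyp2c40 (ENSMUSG00000025004, chromosome 19, 39767071 to 39812814), its neighbour, is likewise known as a female-biased gene and its enzyme as a hydroxylase of arachidonic acid. It was at 292, 474 and 602 CPM in WT vehicle mice. It was at 70.0, 110.3 and 37.3 CPM in WT TCDD mice, so that the groups do not overlap. The log2 difference of -2.65 ± 0.51 (adjusted p = 0.00544, edgeR) was called in each of the 6 fits that leave out 1 WT library. In dHep it was at 405, 211 and 440.2 CPM with vehicle and 249, 278 and 255 CPM with TCDD, and the groups overlap, with a difference of -0.43, or -0.62 without the 5 libraries. In dHSC it was at 306, 483 and 388 CPM with vehicle and 258, 249 and 62.0 CPM with TCDD; the difference of -1.05 did not pass the test (adjusted p = 0.393) and was -0.64 without the 5 libraries.

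Cyp2c69 and Cyp2c40 lie in a row of 4 genes on the minus strand of chromosome 19, with Cyp2c68 and Cyp2c67 next to them. The transcripts of the 4 are 96.4 to 98.0% identical in pairs, and the sequence upstream of Cyp2c69 is 98.6% identical to that of Cyp2c40 over 220 aligned bases, 94.0% to that of Cyp2c68 over 218 and 92.4% to that of Cyp2c67 over 170. The stretches before the genes are shown because 2 of these 4 near copies were called for TCDD in WT livers and the others were not. Each ends at the RefSeq or the GENCODE start, whichever lies further upstream; for Cyp2c68 that is the RefSeq one, while GENCODE starts the gene at 39741054. They are from RefSeq on GRCm38.p6, on the strand of the gene and 5′ to 3′, at chr19:39886800-39887019, chr19:39812815-39813064, chr19:39741102-39741351 and chr19:39649052-39649292 on the minus strand, with capitals at bases that differ from Cyp2c69 in the alignment (3 in Cyp2c40, 13 in Cyp2c68 and 13 in Cyp2c67):
Cyp2c69: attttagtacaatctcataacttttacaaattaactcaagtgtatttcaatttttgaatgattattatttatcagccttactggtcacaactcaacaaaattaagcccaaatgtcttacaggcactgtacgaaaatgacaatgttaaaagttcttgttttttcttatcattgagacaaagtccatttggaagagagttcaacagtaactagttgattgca
Cyp2c40: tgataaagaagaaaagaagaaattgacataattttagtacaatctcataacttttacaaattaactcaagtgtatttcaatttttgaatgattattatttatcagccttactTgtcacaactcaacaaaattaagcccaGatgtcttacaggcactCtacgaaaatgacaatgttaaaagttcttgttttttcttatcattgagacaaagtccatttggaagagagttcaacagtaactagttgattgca
Cyp2c68: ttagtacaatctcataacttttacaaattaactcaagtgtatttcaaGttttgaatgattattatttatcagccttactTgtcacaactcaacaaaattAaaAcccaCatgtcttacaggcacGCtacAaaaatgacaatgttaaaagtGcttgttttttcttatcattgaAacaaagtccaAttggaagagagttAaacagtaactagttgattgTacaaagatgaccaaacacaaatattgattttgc
Cyp2c67: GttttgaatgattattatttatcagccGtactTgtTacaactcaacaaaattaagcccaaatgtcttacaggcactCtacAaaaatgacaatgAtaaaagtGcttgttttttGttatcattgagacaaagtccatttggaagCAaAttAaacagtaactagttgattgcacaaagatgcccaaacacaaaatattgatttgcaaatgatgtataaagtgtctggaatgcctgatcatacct

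Next to the falls of Cyp2c69 and Cyp2c40 in WT livers, Cyp2c68 was at 489, 733 and 633 CPM with vehicle and 399.9, 521 and 385 CPM with TCDD. Its log2 difference of -0.51 was not called (adjusted p = 0.401; 95% interval -1.09 to 0.078). Cyp2c67 was at 191, 178 and 193 CPM with vehicle and 147, 277 and 182 CPM with TCDD, a difference of 0.11 (adjusted p = 0.962; 95% interval -0.73 to 0.95) that was -0.19 without WT TCDD mouse 8. For both the vehicle and TCDD mice overlap. The intervals of Cyp2c69, -6.78 to -3.78, and Cyp2c40, -3.73 to -1.57, lie below those of Cyp2c68 and Cyp2c67, and the difference between genes was not tested. Reads can be shared between these copies: of all 50-base windows of the transcript, 72.1% occur without a mismatch in another gene for Cyp2c40, 54.8% for Cyp2c69, 52.8% for Cyp2c67 and 43.3% for Cyp2c68. How the counting treated such reads is not given in the sources used here, so the level of each of the 4 is uncertain to that extent.

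**Figure D3:**
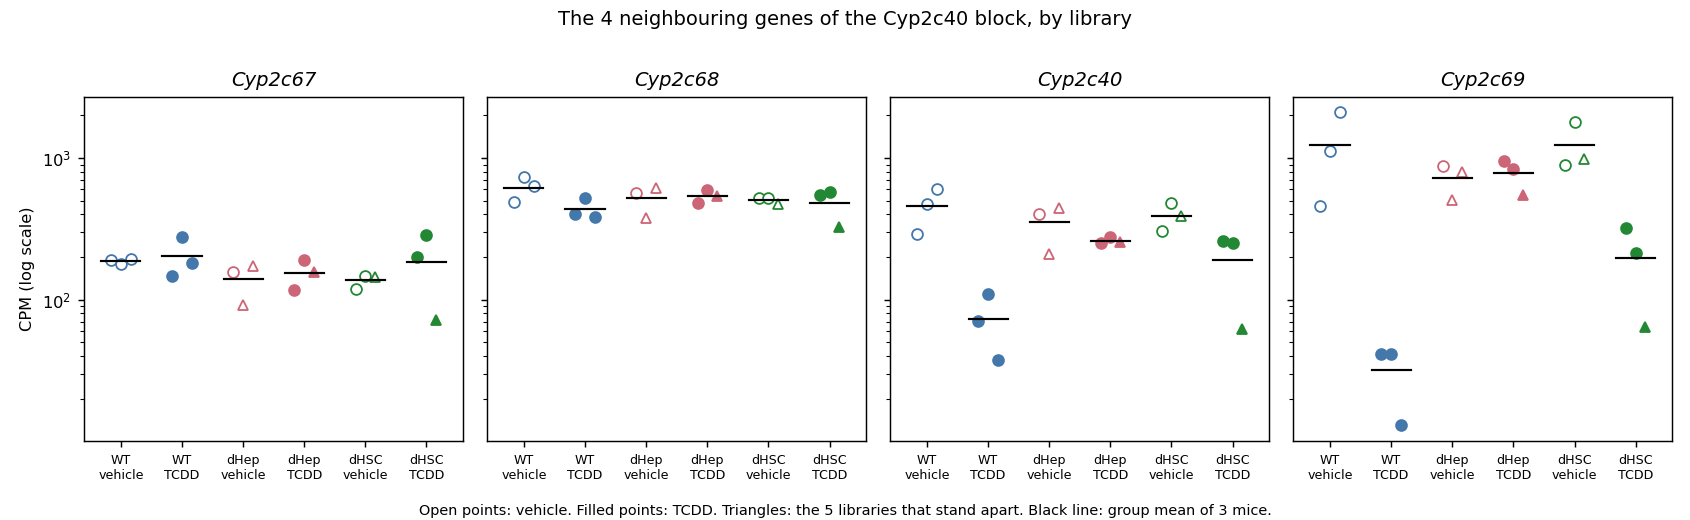
Level of Cyp2c67, Cyp2c68, Cyp2c40 and Cyp2c69 in each library, as CPM on a shared log axis, with the 6 groups along the horizontal axis. Open points are vehicle, filled points TCDD, triangles the 5 libraries that stand apart and lines the mean of 3 mice; the WT TCDD mice lie below all other groups for Cyp2c69, at 12.9 to 41.0 CPM, and within the other groups' range for Cyp2c67.

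Cyp2d9 (ENSMUSG00000068086, chromosome 15, 82433437 to 82456845) is known as a male-biased testosterone hydroxylase, and it was the member that rose. In these female livers it was at 18.1, 66.6 and 15.96 CPM in WT vehicle mice and 251, 286 and 221 CPM in WT TCDD mice. Every TCDD mouse was above every vehicle mouse, and the log2 difference was 2.91 ± 0.56 (adjusted p = 0.00559, edgeR). It reached 3.89 without WT vehicle mouse 7, the highest of that group. In dHep livers it was at 25.1, 21.1 and 48.9 CPM with vehicle and 18.3, 32.1 and 25.4 CPM with TCDD, which overlap, with a difference of -0.32, or 0.0077 without the 5 libraries. In dHSC livers it was at 14.3, 9.43 and 34.9 CPM with vehicle and 99.3, 118 and 93.4 CPM with TCDD, and these do not overlap. The log2 difference there was 2.41 ± 0.55 (adjusted p = 0.0281) and stayed called without the 5 libraries that stand apart, at 3.19 (adjusted p = 0.0332). It was called in 2 of the 6 fits that leave out 1 dHSC library. Of the windows of its transcript 29.0% occur in another gene, and 9.3% of its exons lie under other annotated genes.

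Cyp2g1 (ENSMUSG00000049685, chromosome 7, 26808892 to 26821205), known mainly from the olfactory mucosa, was a gene of low level in these livers. It was at 10.9, 22.0 and 15.6 CPM in WT vehicle mice and 0.778, 0.626 and 0.703 CPM in WT TCDD mice. The TCDD mice lay close together and below all others, with a log2 difference of -4.51 ± 0.54 (adjusted p = 0.000130, edgeR). The dHep mice had 4.68, 9.04 and 11.5 CPM with vehicle and 6.19, 14.3 and 11.1 CPM with TCDD, with overlap and a difference of 0.32, or 1.13 without the 5 libraries. In dHSC it was at 11.8, 22.0 and 24.1 CPM with vehicle and 3.47, 1.93 and 0.931 CPM with TCDD, without overlap. The dHSC difference was -3.19 ± 0.50 (adjusted p = 0.00238), called in each of the 6 fits that leave out 1 library and, at -2.66, without the 5 libraries (adjusted p = 0.0293). Fitted on the dHSC libraries alone, its adjusted p was 0.0720. Only 5.8% of its windows occur in another gene.

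Cyp2c23 (ENSMUSG00000025197, chromosome 19, 44005022 to 44029208), also named Cyp2c44, is known as an epoxygenase of arachidonic acid, and none of its windows occurs in another gene. It was at 419, 477 and 396 CPM in WT vehicle mice and 71.9, 176 and 91.3 CPM in WT TCDD mice. The groups do not overlap, and the log2 difference was -1.93 ± 0.40 (adjusted p = 0.00830, edgeR). The call ended without WT TCDD mouse 2 (adjusted p = 0.0525) and without mouse 14 (adjusted p = 0.0516). Its level in dHep was 322, 416 and 586 CPM with vehicle and 356, 652 and 528 CPM with TCDD, which overlap, with a difference of 0.21, or 0.65 without the 5 libraries. In dHSC it was at 285, 325 and 567 CPM with vehicle and 121, 173 and 88.4 CPM with TCDD, which do not. The dHSC difference of -1.62 ± 0.39 (adjusted p = 0.0377) was called in 1 of the 6 fits that leave out 1 dHSC library, and without the 5 libraries it was -1.05 (adjusted p = 0.374).

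**Figure D4:**
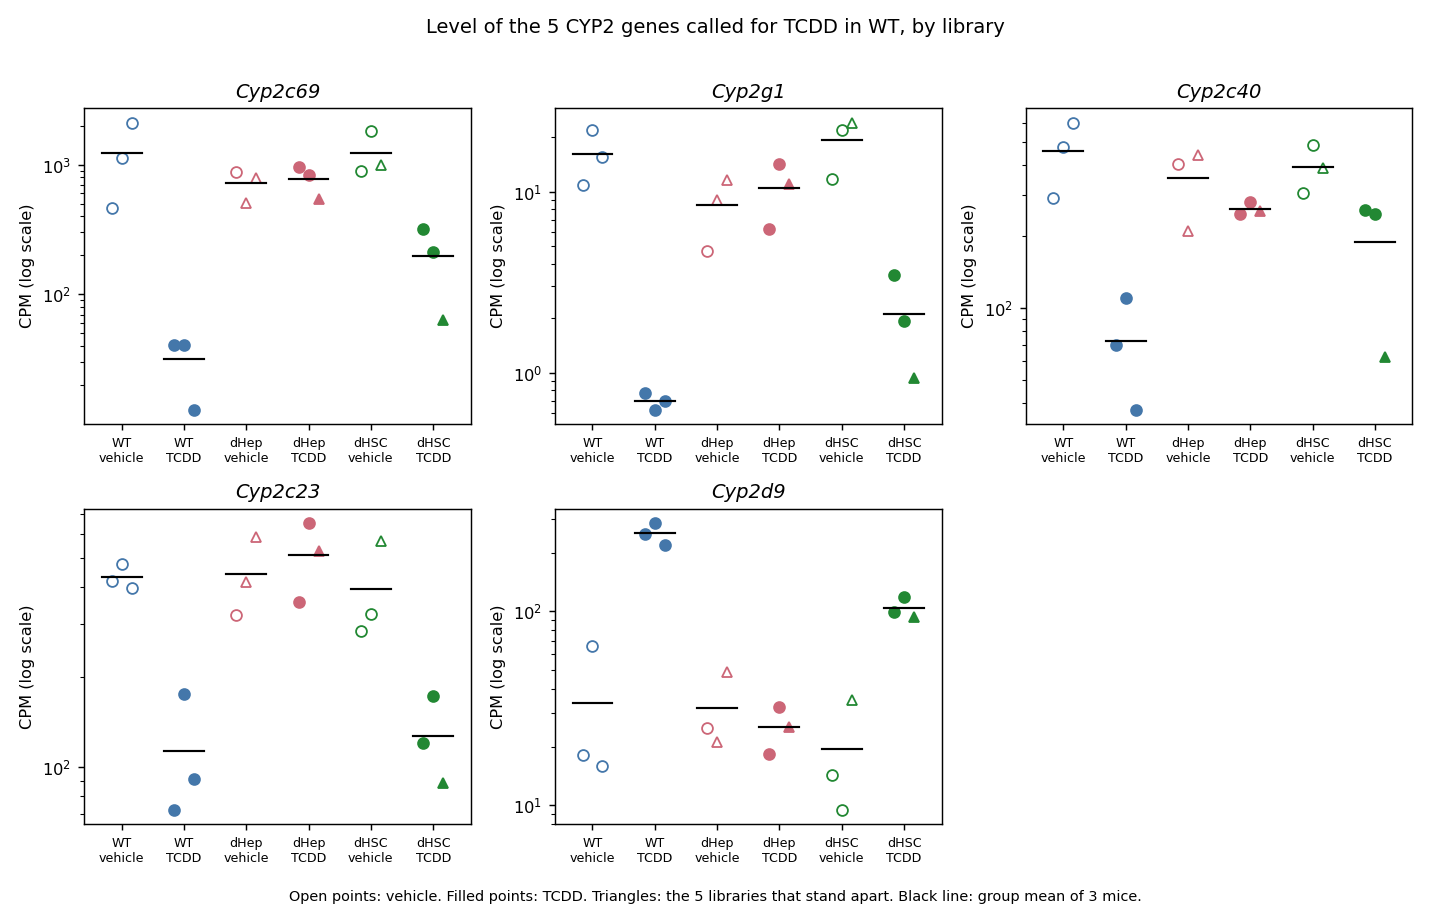
Level of Cyp2c69, Cyp2g1, Cyp2c40, Cyp2c23 and Cyp2d9 in each library, as CPM on a log axis for each gene, with the 6 groups along the horizontal axis. Open points are vehicle, filled points TCDD, triangles the 5 libraries that stand apart and lines the mean of 3 mice; vehicle and TCDD points separate in WT and dHSC and mix in dHep for all 5 genes.

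Several further members were lower in every WT TCDD mouse without passing the test over all genes. Cyp2j5, a kidney and liver epoxygenase, was at 588, 857 and 919 CPM with vehicle and 228, 239 and 266 CPM with TCDD, a log2 difference of -1.69 (adjusted p = 0.0622, edgeR). Cyp2c70, which makes the muricholic acids of mouse bile, was at 519, 993 and 956 CPM with vehicle and 121, 148 and 346 CPM with TCDD, a difference of -2.01 (adjusted p = 0.0974). Cyp2b9, a female-biased gene, was at 541, 645 and 782 CPM with vehicle and 336, 244 and 246 CPM with TCDD, a difference of -1.25 (adjusted p = 0.0915). For these 3 genes the highest TCDD mouse lay below the lowest vehicle mouse. Cyp2d40 differed by -1.39, Cyp2c38 by -1.44, Cyp2c54 by -1.04 and Cyp2c39 by -0.84, with adjusted p of 0.0765, 0.182, 0.0684 and 0.542. In the fit that leaves out the 5 libraries, adjusted p was 0.000583 for Cyp2j5, 0.00933 for Cyp2c70 and Cyp2d40, 0.00570 for Cyp2b9, 0.0367 for Cyp2c38 and 0.0422 for Cyp2r1, with log2 differences of -1.68, -2.00, -1.38, -1.25, -1.43 and -0.73. Cyp2c54 passed without WT vehicle mouse 1 (adjusted p = 0.0341).

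The abundant pericentral members, which sit around the central vein of the lobule, passed the test in 0 of 6 cases in WT. Over all genes 5.38% passed, and for a list of 6 this count is near that share. Cyp2c54, on this list, was called with DESeq2 at -1.04 (adjusted p = 0.0186). Cyp2e1 was at 8338, 9150.3 and 6402 CPM in WT vehicle mice and 5941, 5567 and 4158 CPM in WT TCDD mice. All 3 TCDD mice were lower, and the log2 difference of -0.61 ± 0.48 did not pass the test (adjusted p = 0.661). In dHep it was at 7141, 3422 and 5438 CPM with vehicle and 5776, 10945 and 4225 CPM with TCDD. In dHSC it was at 5981, 7503 and 6903 CPM with vehicle and 5769.6, 4931 and 1239 CPM with TCDD, with the lowest value in mouse 18. The log2 difference was 0.39 in dHep and -0.77 in dHSC, and neither passed. Without the 5 libraries these were 0.23 and -0.33. Without dHep TCDD mouse 10 the dHep value turned to -0.090, and without mouse 18 the dHSC value was -0.35.

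Cyp2a5 was at 3376, 1239.9 and 695 CPM in WT vehicle mice and 3813, 5615 and 1375 CPM in WT TCDD mice. The dHep mice had 695, 1768 and 1389.7 CPM with vehicle and 935, 5089 and 991 CPM with TCDD, and the dHSC mice had 777, 2249 and 3283 CPM with vehicle and 2313, 1936 and 1666 CPM with TCDD. Single mice differed several-fold within most groups, and vehicle and TCDD overlap in each genotype, at 1.02 (95% interval -0.54 to 2.59), 0.86 and -0.093 on the log2 scale. Without WT vehicle mouse 1 the WT value was 1.89, and without dHep TCDD mouse 10 the dHep value turned to -0.41. Without the 5 libraries the dHep value was 2.12 and the dHSC value turned to 0.49, and without dHSC vehicle mouse 17 it turned to 0.37. Cyp2a4, a steroid hydroxylase whose transcript is 98.2% identical to that of Cyp2a5, differed by -0.49 in WT, and by -2.03 without WT TCDD mouse 8. Cyp2a12 differed by -0.28.

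Cyp2c37 was at 1263, 1658 and 1285 CPM in WT vehicle mice and 1069, 900.0 and 646 CPM in WT TCDD mice. These groups do not overlap, and the log2 difference was -0.69 (adjusted p = 0.297, edgeR). Its level in dHep was 1248, 774 and 1112 CPM with vehicle and 1234, 1444 and 1085 CPM with TCDD, and the dHSC mice had 1228, 952 and 1070.1 CPM with vehicle and 1111, 779.6 and 457 CPM with TCDD, with overlap in both. The difference was 0.26 in dHep and -0.47 in dHSC, and 0.10 and -0.20 without the 5 libraries. Cyp2d26 was at 1021, 1379.8 and 956 CPM in WT vehicle mice and 585, 1005 and 526 CPM in WT TCDD mice, a difference of -0.67 (adjusted p = 0.329) with overlap. In dHep it was at 991, 823 and 1333 CPM with vehicle and 994, 1196 and 916 CPM with TCDD, and the dHSC mice had 837, 803 and 1121 CPM with vehicle and 833, 671 and 418 CPM with TCDD. These groups overlap too, at -0.019 in dHep and -0.52 in dHSC, and at 0.15 and -0.12 without the 5 libraries.

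The 7 members listed as targets of CAR or PXR had 0 calls in WT, 0 in dHep and 0 in dHSC. Over all genes 5.38%, 0.0674% and 2.55% were called, and for a list of 7 these counts are near those shares. The medians of the 7 were 0.15, 0.26 and -0.093 on the log2 scale. Cyp2b10, the most widely used marker of CAR activity, was at 44.0, 146 and 94.8 CPM in WT vehicle mice and 40.7, 25.2 and 69.4 CPM in WT TCDD mice, a difference of -1.07 (adjusted p = 0.681). Cyp2c55 lay on the other side, at 1.47 (adjusted p = 0.284), with 4.30, 12.8 and 10.7 CPM with vehicle and 27.1, 11.4 and 38.5 CPM with TCDD. Both sets of mice overlap. Cyp2c29 differed by 0.38 and Cyp2c50 by 0.15 in WT.

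Of the 8 members listed as female-biased, 2 fell in WT livers, Cyp2c69 and Cyp2c40, and 1 fell in dHSC, Cyp2c69, where 1.95% of all genes fell in WT and 0.843% in dHSC. Their 8 log2 differences in WT all lay below 0, with a median of -1.16, against -0.015 over all genes. In dHSC all 8 lay below 0 as well, with a median of -0.81, and in dHep 4 of the 8, with a median of -0.17. The lowest of the others in WT were Cyp2c38 and Cyp2b9, and Cyp2b13 differed by -0.54 (adjusted p = 0.654). The direction was not fixed for all 8: over the alternative fits Cyp2a4 ran from -2.03 to 0.34 in WT. In dHSC Cyp2b13 ran from -0.32 to 0.27 and Cyp2b10 from -1.21 to 0.28. The rest of the 8 stayed below 0 in both genotypes. Of 3 tested members of the male-biased list, Cyp2d9 rose in WT and in dHSC, where rises were called in 3.43% and 1.71% of all genes. Cyp2f2, a naphthalene oxidase that is periportal in the lobule, differed by -0.0011 in WT (95% interval -0.83 to 0.83), and 39.0% of its exons lie under another annotated gene. Cyp2u1 differed by -0.79 in WT and by 0.16 without vehicle mouse 7.

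Among the remaining members, Cyp2j6, Cyp2j9 and Cyp2j11 of the epoxygenase subfamily CYP2J differed by -0.23, -0.23 and -0.49 in WT. Of the 4 tested CYP2J genes 0 were called there, against 5.38% of all genes, and for 4 genes this count is near that share. As a share of the family's counts CYP2J went from 3.51 ± 0.829% to 1.69 ± 0.364% in WT (SD, n = 3). Most of that share was Cyp2j5, at a mean of 788 CPM with vehicle and 244 CPM with TCDD. Cyp2j6 was at 84.4 and 72.1 CPM. Cyp2r1, which starts the activation of vitamin D, differed by -0.73 (adjusted p = 0.599), with every TCDD mouse below every vehicle mouse. In CYP2D, Cyp2d10, Cyp2d22 and Cyp2d12 differed by 0.26, 0.053 and -0.21, and Cyp2d10 by -0.26 without WT TCDD mouse 8. Cyp2d11 was above in every TCDD mouse at a very low level, 0.115 to 0.172 CPM with vehicle and 0.183 to 0.456 CPM with TCDD (log2 0.91, adjusted p = 0.693). Cyp2s1, reported as dioxin-inducible in other tissues, was at 2.24, 1.23 and 0.517 CPM in WT vehicle mice and 0.870, 0.399 and 1.16 CPM in WT TCDD mice, with overlap and a difference of -0.70.

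In livers with the deletion in hepatocytes, 0 of the 36 tested members were called for TCDD by edgeR's quasi-likelihood test, against 0.0674% of all genes, 0.027% higher and 0.0404% lower. At an unadjusted p under 0.05 there was 1, Cyp2s1, against 6.7% of all genes, and DESeq2 called 0. The median log2 difference of the members was 0.018, with 19 of 36 above 0. The groups failed to overlap for 0 of 36 members, where 4.56% of all genes were above in every TCDD mouse and 5.03% below, 9.59% in all. Cyp2s1 was at 0.974, 12.7 and 0.377 CPM with vehicle and 0.606, 0.502 and 1.63 CPM with TCDD, a difference of -2.37 that became 0.38 without vehicle mouse 9 and -0.80 without the 5 libraries. Leaving out the 5 libraries that stand apart takes away 3 dHep mice; dHep vehicle is then 1 mouse, whose spread the fit takes from the other groups. With that fit 0 members were called as well.

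The test of the difference between genotypes called 2 of the 36 members, 5.56%, where 0.856% of all genes were called, 0.351% with a higher and 0.506% with a lower response in dHep. The TCDD response of Cyp2c69 was higher in dHep than in WT by 5.38 ± 0.89 on the log2 scale (adjusted p = 0.00845, edgeR) and that of Cyp2g1 by 4.83 ± 0.69 (adjusted p = 0.00314). Both were called in all 12 fits with 1 library left out. With the 5 libraries left out, Cyp2g1 stayed called at 5.63 (adjusted p = 0.0296), and Cyp2c69 was at 5.30 with an adjusted p of 0.134, in a fit that called 0.122% of all genes. For Cyp2d9 the dHep response minus the WT response was -3.24 ± 0.76 and did not pass (adjusted p = 0.0628). The differences of Cyp2c23, 2.15 (adjusted p = 0.103), and Cyp2c40, 2.22 (adjusted p = 0.233), did not pass. Leaving out WT vehicle mouse 7 brought Cyp2d9 to -4.21 (adjusted p = 0.0127), and leaving out WT TCDD mouse 8 brought Cyp2c23 to 2.62 (adjusted p = 0.0441). With DESeq2 4 members were called, Cyp2d9 (-3.27, adjusted p = 0.00216) and Cyp2c23 (2.12, adjusted p = 0.0150) among them, against 1.78% of all genes.

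In livers with the deletion in stellate cells, 4 of the 36 members were called for TCDD, 11.1%, against 2.55% of all genes. Cyp2c69, Cyp2g1 and Cyp2c23 fell and Cyp2d9 rose, where falls were called in 0.843% and rises in 1.71% of all genes. All 3 TCDD mice lay below all vehicle mice for 10 members and above them for 2, against 7.70% and 9.61% of all genes and 17.3% in both directions. The median of the 36 was -0.45. The count was 0 when only the dHSC libraries were fitted, against 0.563% of all genes, and 2 without the 5 libraries that stand apart, against 1.37%. It was 1 to 2 when any 1 dHSC library was left out, in fits that called 1.10 to 1.93% of all genes. The members that kept their call without the 5 libraries were Cyp2g1 and Cyp2d9. In dHSC vehicle and TCDD livers the neutrophil markers summed to 1.45 to 4.36 and 8.45 to 116.8 CPM, the top value being mouse 18, with 3 of 4 called. Cholangiocyte markers summed to 37.4 to 89.5 and 109 to 133 CPM (0 of 5 called) and B cell markers to 2.08 to 4.08 and 6.77 to 30.5 CPM (2 of 2 tested rose). Pancreas markers, again nearly all Cela1, summed to 19.4 to 51.8 and 2.58 to 8.41 CPM (1 of 1 tested fell). Most of the cholangiocyte sum was Spp1, at 30.1 to 78.4 CPM with vehicle and 94.6 to 114 CPM with TCDD. Krt19, Krt7 and Sox9 overlap between the groups, and Epcam does not. None of the summed lists given here for dHSC overlaps between the groups. The endothelial, macrophage, T cell, stellate cell and hepatocyte lists do overlap there. The part of these lists in the result was not tested.

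Between dHSC and WT, 0 of 36 members differed in their TCDD response by edgeR's quasi-likelihood test, and 0% of all genes did. At an unadjusted p under 0.05 there were 2, Cyp2c69 and Cyp2c40, against 1.57% of all genes, and DESeq2 called 0 members. The response of Cyp2c69 was higher in dHSC by 2.64 ± 0.85 (95% interval 0.84 to 4.45, adjusted p = 1) and that of Cyp2c40 by 1.60 ± 0.68 (0.16 to 3.05). The difference was 1.32 for Cyp2g1 (-0.11 to 2.75), 0.31 for Cyp2c23 (-0.84 to 1.46) and -0.51 for Cyp2d9 (-2.08 to 1.07). These intervals are wide, and a difference of 1 log2 unit lies inside each. Without the 5 libraries the values were 2.92 for Cyp2c69, 2.01 for Cyp2c40, 1.85 for Cyp2g1, 0.87 for Cyp2c23 and 0.27 for Cyp2d9, with 0 called. The responses in dHep and dHSC are both set against the same WT mice.

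Between the genotypes without TCDD, 0 of 36 members were called. For dHep against WT in vehicle 0% of all genes were called by edgeR's quasi-likelihood test, 0 members passed at an unadjusted p under 0.05, against 6.91% of all genes, and DESeq2 called 0 members. The lowest value was that of Cyp2b10 at -0.98 (95% interval -2.86 to 0.89) and the highest that of Cyp2s1 at 1.81, which rests on mouse 9. Cyp2c37, Cyp2c38, Cyp2c39 and Cyp2c67 were lower in all 3 dHep mice, 4 of 36, against 3.26% of all genes lower, 4.58% higher and 7.85% in both directions. Of these dHep mice, 9 and 15 are among the 5 libraries that stand apart. Cyp2c37 was at 1248 CPM in dHep mouse 3 and 1263 CPM in the lowest WT mouse. In the same order Cyp2c38 was at 167 and 174, Cyp2c39 at 10.8 and 11.1 and Cyp2c67 at 155 and 178 CPM. For dHSC against WT in vehicle 0% of all genes were called, 1 member passed at an unadjusted p under 0.05, Cyp2d11 at 1.89, against 1.48% of all genes, and DESeq2 called 0 members. Cyp2c37 and Cyp2c67 were lower and Cyp2d11 higher in all 3 dHSC mice, 3 of 36, against 2.16% of all genes lower, 2.24% higher and 4.41% in both directions.

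For 3 of the 36 members the 5 libraries lie wholly outside the range of the other 13, which is the case for 13.4% of all genes, and the 5 were picked by how far they lie from the rest. Cyp2c29, one of the most abundant CYP2C genes, was at 76.9 to 363 CPM in the 5 libraries and at 723 to 3470.0 CPM in the other 13. Cyp2c50 was at 324 to 863 CPM in the 5 and 952 to 2073 CPM in the rest, and Cyp2d12 at 1.13 to 1.96 and 0.225 to 1.01 CPM. The TCDD difference of Cyp2c29 in dHep was 0.51 with all mice, 2.23 without dHep vehicle mouse 3 and -0.23 without the 5 libraries. Cyp2c50 was at 0.57 in dHep and 0.61 in dHSC, and at 0.27 and 0.80 without the 5 libraries, and none of these passed.

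**Figure D5:**
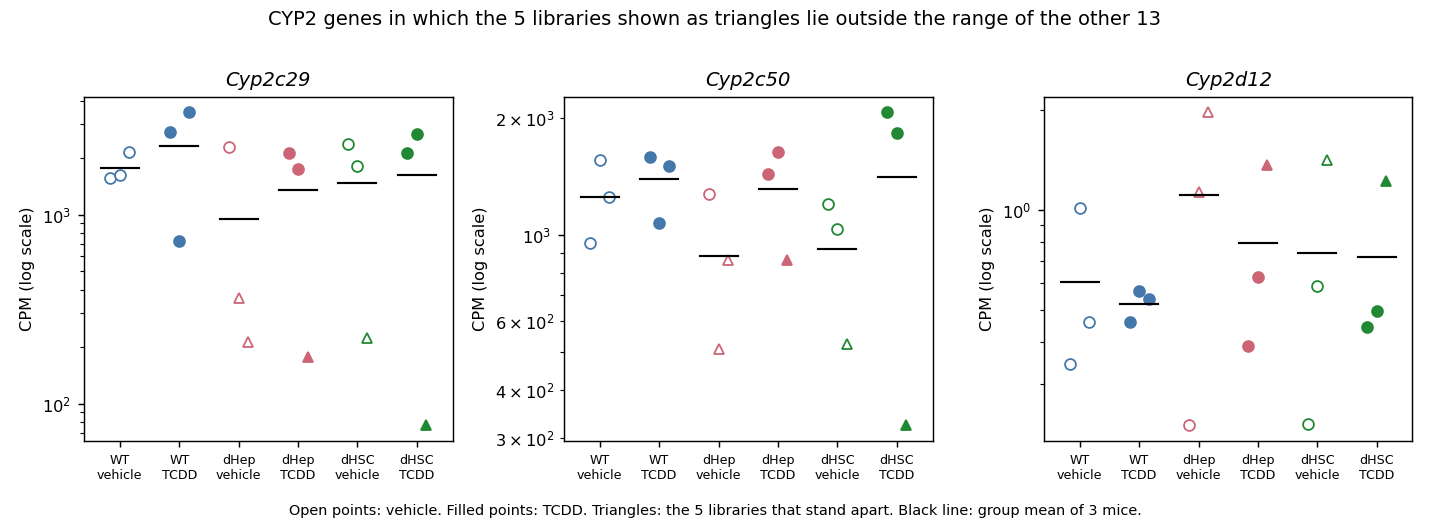
Level of Cyp2c29, Cyp2c50 and Cyp2d12 in each library, as CPM on a log axis for each gene, with the 6 groups along the horizontal axis. Open points are vehicle, filled points TCDD and lines the mean of 3 mice; the 5 triangles, which are the libraries that stand apart, lie below all circles for Cyp2c29 and Cyp2c50 and above them for Cyp2d12.

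The partners of the family were taken from fixed lists. Of 9 genes of the growth hormone route, 0 were called in dHep or dHSC, against 0.0674% and 2.55% of all genes. In WT livers 2 fell with TCDD, where 1.95% of all genes fell. These were the growth hormone receptor Ghr, at -1.48 ± 0.27 (adjusted p = 0.00396, edgeR), and Socs2, a feedback inhibitor that STAT5 raises, at -1.95 ± 0.49 (adjusted p = 0.0282). Ghr was at -0.80 in dHep and -0.84 in dHSC, and the difference of its response between dHep and WT was not called (adjusted p = 0.698, edgeR). With vehicle and TCDD Ghr was at 667 to 1241 and 449 to 644 CPM in dHep. In dHSC it was at 574 to 671 and 302 to 409 CPM. Neither overlaps, where 5.03% of all genes were below without overlap in dHep and 7.70% in dHSC. Socs2 overlaps in both. Stat5b, at -0.55, and Cux2, a female-biased repressor of male-biased genes, at -1.82, were not called (adjusted p = 0.468 and 0.203).

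Of 11 nuclear receptors and hepatocyte factors 0 were called in any genotype, with CAR (Nr1i3) at -0.15, PXR (Nr1i2) at -0.17 and Hnf4a at -0.14 in WT. Over all genes 5.38% were called in WT, 0.0674% in dHep and 2.55% in dHSC. Of 5 electron donors 0 were called, with Por at 0.36 in WT, and for lists this short 0 calls are near those shares. Of 9 genes of heme synthesis and breakdown, 1 was called in WT, where rises were called in 3.43% of all genes. Hmox1, the heme oxygenase that breaks heme down, rose by 1.50 ± 0.39 (adjusted p = 0.0314, edgeR). Alas1, which starts heme synthesis, was at 0.51 (adjusted p = 0.921).

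Of the 48 members 40 matched an entry in the RefSeq promoter table. Cyp2g1 and Cyp2c23 did not, so no window of these 2 called genes was searched. The 40 have 42 starts there, and for 34 of the 42 the first transcribed bases lie in a GENCODE transcript of the gene. In the 250 bases before the RefSeq start, on both strands, the AHR core GCGTG occurs in 6 of the 40, against 28.2% of 32851 promoters of that length. The STAT site TTCNNNGAA occurs in 2, against 7.0%, and the nuclear receptor repeat unit AGGTCA in 10, against 4607 of the 32851. The windows of Cyp2c69, Cyp2c40 and Cyp2d9 hold none of these letters, and that of Cyp2c68 holds GCGTG 130 to 126 bases before its start on the other strand, in the stretch printed as cacGC. These are matches of letters in 1 window, not sites. The Cyp2d9 window, 82452127 to 82452376, lies inside the GENCODE span of the gene. The AGGTCA of Cyp2c39 is in a window at 39347096 to 39347345, outside its GENCODE span of 39510862 to 39568529.

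The 12 members that were not tested had 0 to 65 counts over all 18 libraries. Cyp2a22 and Cyp2w1 had 0 counts, and Cyp2a22 lies wholly under another annotated gene. Cyp2b19, Cyp2b23, Cyp2c65, Cyp2c66, Cyp2d34, Cyp2j7, Cyp2j8, Cyp2j12, Cyp2j13 and Cyp2t4 had few. For them a difference was not detectable at this depth. Over the family 18 of the 48 have more than 20% of their 50-base windows in another gene and 14 have less than 1%, and 14 are overlapped by another annotated gene. Levels of the first set may hold or lack reads of a near copy.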

How the data were processed

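Whole-liver mRNA of 18 mice was sequenced, and the values deposited by the authors are raw read counts per gene, 1 file per library. Per the submitters' processing notes the tools were HISAT2 2.1.0, FastQC 0.11.9, DESeq2 1.22.2 and HTSeq 0.11.3, on GRCm38; counting settings and strand are not given in the sources used here. Names and positions came from GENCODE M21, which names 55450 of the 55536 identifiers. The counts leave out genes inside other genes: 684 of 684 protein-coding genes with clear exons but a span within other genes had 0 counts, against 24.8% of 11728 genes clear of all others, so overlapped members may lack reads.

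Counts were fitted with edgeR 4.0.16 in R 4.3.3 (filterByExpr, TMM scaling, 1 model over 18 libraries with a mean per group, quasi-likelihood test). P-values were adjusted by Benjamini-Hochberg over the 14835 genes kept, and called under 0.05, in 7 comparisons. The common dispersion was 0.200. CPM are on TMM-scaled totals, and CPM per kb use the union of exons. Whether reads in introns were counted is not given in the sources used here, and introns are not part of that length. The standard error of a difference is its size over the square root of the F statistic. Each library is 1 mouse, and total counts of at least 12706490 leave sampling error small for members above a few CPM. The script was tested on simulated data. Alternatives were RLE scaling, no filter, at least 1 CPM in 3 libraries, only the groups compared, DESeq2 1.42.0 and leaving out each library. Chosen after seeing the data was a fit without the 5 libraries that stand apart. The members and lists were chosen with earlier results of these data known. Values in every library are given for called members and the 5 of highest level per kb, and other genes are named from fixed lists. Sequences were aligned with Biopython 1.88, and windows of 50 bases compared without mismatch.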

Additional observations from a re-analysis of the deposited data

Results flagged for a closer look

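The TCDD response of Cyp2c69 differed between dHep and WT by the test of the difference itself, at 5.38 on the log2 scale. In WT all 3 TCDD mice, at 12.9 to 41.0 CPM, lay below all 3 vehicle mice, at 461 to 2105 CPM, while the dHep groups overlap at 509 to 877 and 547 to 956 CPM. Without the 5 libraries that stand apart its adjusted p was 0.134 (edgeR).

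The response of Cyp2g1 differed in the same comparison by 4.83. The WT TCDD mice had 0.778, 0.626 and 0.703 CPM and the dHep TCDD mice 6.19, 14.3 and 11.1 CPM.

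A signal also appeared in 2 pseudogene loci, which are outside the 48 genes. Cyp2d41-ps rose in WT by 3.65 on the log2 scale (adjusted p = 0.00143, edgeR), from 0.115, 0.280 and 0.115 CPM with vehicle to 1.60, 3.65 and 1.45 CPM with TCDD. It was 0.0905, 0.147 and 0.211 CPM in dHSC vehicle and 0.959, 0.692 and 1.58 CPM in dHSC TCDD livers (2.82 ± 0.61, adjusted p = 0.0188), and 0.487, 0.476 and 0.528 and 0.173, 0.314 and 0.340 CPM in dHep. Its response differed between dHep and WT by -4.51 ± 0.82 (adjusted p = 0.0145). Cyp2c53-ps, which overlaps Cyp2c29, rose in WT by 5.34 (adjusted p = 0.0179), from 0, 0.0560 and 0.0574 CPM to 0.962, 0.399 and 4.05 CPM. Both loci hold few reads, 241 and 155 counts over the 18 libraries.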

How the results depend on the processing

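No called value of a member changed direction under any alternative run, and 0 members were called for TCDD in dHep, for the dHSC response against WT and for both vehicle comparisons under every setting. The other counts of called members moved. For WT and for dHep minus WT, the shares of all genes in the fits with 1 library left out are not given here. In WT, 5 became 8 with only the groups compared, 10 with DESeq2 and 11 without the 5 libraries that stand apart, and ran from 4 to 6 with 1 library left out. In dHSC, 4 became 0 with only the groups compared and 2 without the 5 libraries, and ran from 1 to 2 with 1 left out. For the response in dHep minus WT, 2 became 4 with DESeq2 and 1 without the 5 libraries, and ran from 2 to 3 with 1 left out. The fit without the 5 libraries leaves dHep vehicle with 1 mouse, assumed to vary like the other groups. The family's share of counts in dHep vehicle was 2.11% in that mouse against 1.77% in all 3. Over all genes the calls in WT were 798, and 1336 with DESeq2, 1584 without the 5 libraries and 445 without WT TCDD mouse 2; in dHSC they were 379, and 716 with DESeq2 and 75 with only the groups compared; in dHep minus WT they were 127, and 288 with DESeq2 and 19 without the 5 libraries; in dHep they were 10, and 84 with DESeq2. The causes of these shifts were not tested. No paired analysis was run, because the labels name no pairing and the groups share no mouse numbers. Depth limits the members of low level: the 12 that were not tested had at most 65 counts in all.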

Other observations

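Cyp2d37-ps was at 41.3, 65.3 and 54.6 CPM in WT vehicle and 38.0, 36.2 and 29.3 CPM in WT TCDD mice, and Cyp2d38-ps at 48.9, 27.6 and 56.0 and 35.4, 3.87 and 27.9 CPM. Neither was called in WT (adjusted p = 0.568 and 0.758, edgeR). Cyp2b27-ps had a log2 difference of -2.44 ± 0.63 in WT and fell (adjusted p = 0.0319), from 0.860, 3.70 and 1.84 CPM with vehicle to 0.275, 0.342 and 0.537 CPM with TCDD. Cyp2d36-ps was at 42.3 to 159 CPM in the 5 libraries that stand apart and at 3.81 to 22.1 CPM in the other 13. These loci were named after their values were seen.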
